A study of Mus musculus with 8 samples.

Results

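The 35 genes described here encode the enzymes that build, sulfate, trim and cut heparan sulfate, and the syndecan, glypican and matrix core proteins that carry it. They were taken from a fixed list of gene symbols, out of 42416 mouse genes in the count tables. The libraries came from sorted pieces of the distal convoluted tubule, where the kidney takes up NaCl by the cotransporter that thiazide drugs block. The KO group held 4 libraries from mice labelled Tg/Tg for the floxed allele Cnb1fl, and the Control group held 4 libraries from mice labelled wt for it. Cnb1 is Ppp3r1, which encodes calcineurin B, the regulatory subunit of the phosphatase calcineurin. Every mouse in both groups was labelled NCCcre Tg/+ and TOMATO Tg/+, and the treatment protocol gave tamoxifen at 2 mg per animal and day by gavage for 5 days, so Controls carried the recombinase and received the drug as well. Tissue was taken 3 weeks after induction, and each library was made from 1000 sorted fragments. NCC is the NaCl cotransporter of this segment, so the deletion is meant for distal convoluted tubule cells and not for other cells that the fragments may hold. The sources used here give neither age nor sex, and no strain.

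Heparan sulfate is a long sugar chain built on a core protein in the Golgi. A linker is first laid on serine residues of the core, the exostosin enzymes extend the chain, and N-deacetylase/N-sulfotransferases, an epimerase and the 2-O-, 6-O- and 3-O-sulfotransferases then modify it in stretches. Outside the cell, the sulfatases Sulf1 and Sulf2 remove 6-O-sulfate groups, and heparanase cuts the chain. The sulfate pattern governs the binding of growth factors such as FGF, HB-EGF, VEGF and Wnt proteins, and in the kidney perlecan and agrin sit in the basement membranes of tubules and glomeruli.

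Total counts ranged from 18161442 to 45150953 per KO library and from 19911826 to 42389558 per Control library. Levels are given as CPM (counts scaled to library size, with TMM factors), and fold changes as KO over Control. Ppp3r1 itself had 80.7, 74.0, 97.7 and 92.5 CPM in the KO libraries and 108, 97.4, 99.8 and 84.4 CPM in the Control libraries, and it did not pass the test (log2 fold change -0.18 ± 0.13 SE, edgeR quasi-likelihood adjusted p = 0.548). Counts over the whole gene do not show whether the floxed part was deleted, so the groups rest on the deposited genotype label. The cotransporter gene Slc12a3, which defines the segment, stood at 3911 to 8074 CPM in KO and 5651 to 8049 CPM in Control. Markers of neighbouring segments were present as well, among them Umod of the thick ascending limb at 2427 to 4545 CPM in KO and 6028 to 10962 CPM in Control. On principal components of the 500 most variable genes, KO replicate 4 lay farthest out on the first (-28.2, against -15.3 to 0.18 in the other KO libraries and 6.98 to 16.2 in Control) and Control replicate 1 on the second (-21.1, against -3.98 to 10.1 in all others).

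The distal tubule libraries held many but not all of the 35 genes. Over the whole series, 14268 of 42416 genes had enough counts to be tested. Of the 35 genes, 24 had enough counts to be tested, and 11 stayed at or below 0.698 CPM in every library: Ndst3, Ndst4, Hs3st1, Hs3st2, Hs6st2, Hs6st3, Hpse, Hpse2, Gpc2, Gpc5 and Gpc6. In the sulfatase, 6-O-sulfotransferase and syndecan families a single gene held nearly all of the level. Compared per kilobase of exon, syndecan-4 (Sdc4) was the highest member at 251 CPM per kb in KO and 331 CPM per kb in Control. Next came the glypicans Gpc3 (37.3 CPM per kb in KO, 22.3 in Control) and Gpc4 (33.8 in KO, 36.0 in Control), Sulf2 (35.3 in KO, 16.6 in Control), Hs6st1 (23.4 in KO, 21.5 in Control) and Sdc2 (22.4 in KO, 24.5 in Control). The exon lengths join the exons of all annotated transcripts, so they overstate the length of genes with many isoforms.

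**Figure D1:**
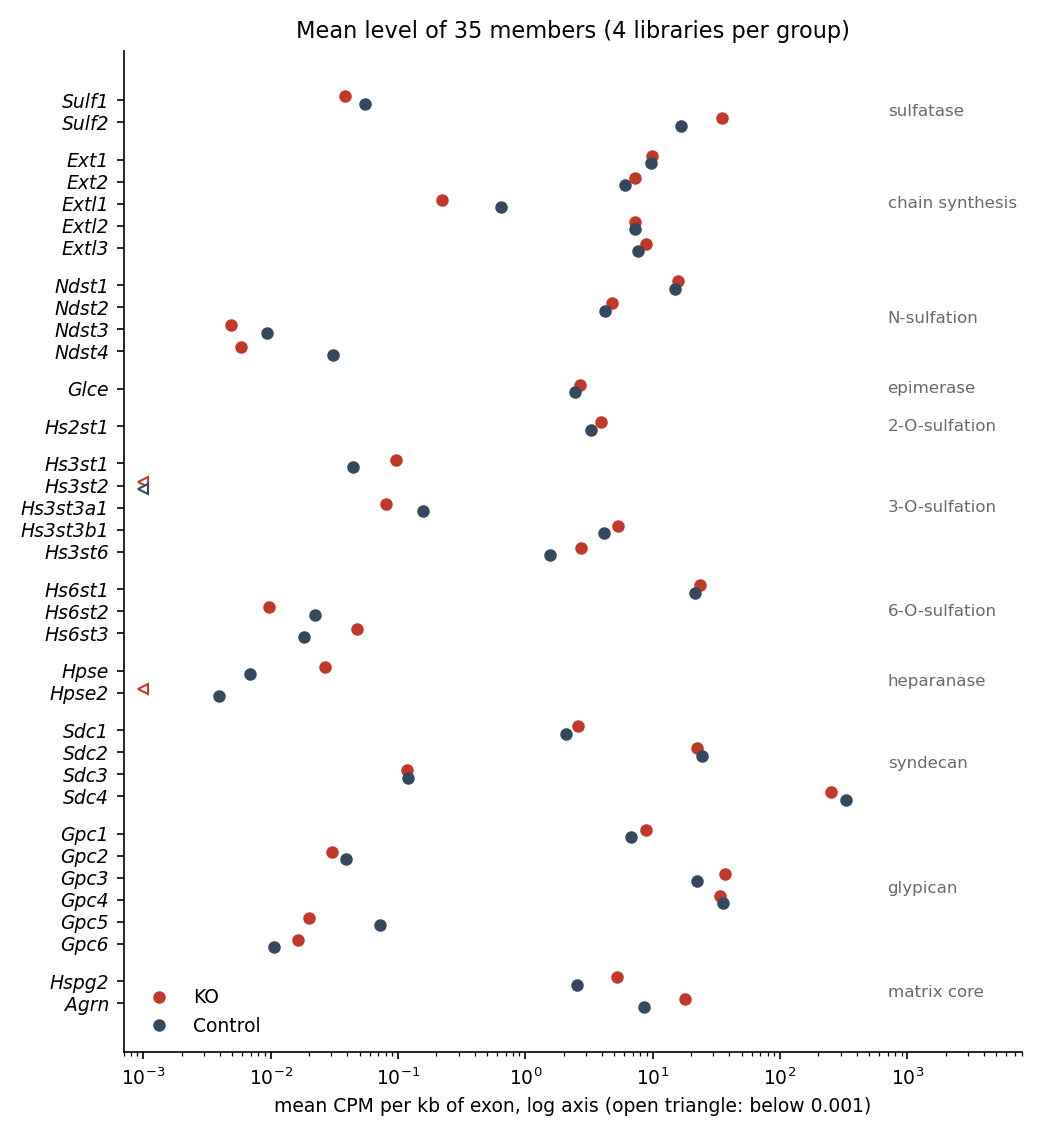
Mean level of each of the 35 members in CPM per kb of exon on a log axis, by role, in KO (red) and Control (dark blue), 4 libraries each, with open triangles for means below 0.001. Sdc4 lies far to the right at 251 in KO and 331 in Control, and Hs3st2 had no count in either group.

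Of the 24 tested genes, 2 rose in KO (Sulf2 and Agrn), 0 fell and 22 did not pass edgeR's quasi-likelihood test at an adjusted p of 0.05 over all 14268 genes tested. Of all genes tested, 1.34% rose, 0.876% fell and 2.21% passed in either direction. At an unadjusted p under 0.05, 7 members were higher and 2 lower, against 7.79% of all genes higher, 6.15% lower and 13.9% in both directions. DESeq2 called Sulf2, Agrn and Gpc3 higher and Extl1 lower, where 2.96% of all genes were called higher, 2.29% lower and 5.25% in both. Limma-voom called Sulf2, Agrn and Gpc3 higher and 0 members lower, where 2.0% of all genes were called higher, 1.63% lower and 3.64% in both. The KO and Control libraries did not overlap for 4 members that were higher (Sulf2, Agrn, Hs2st1 and Sdc1) and 1 that was lower (Extl1), against 5.61% of all genes higher, 3.83% lower and 9.44% in both. The median log2 fold change was 0.16 over the 24 tested members and -0.02 over all genes. With library totals as the scaling, the median over all genes moved to 0.13. The fold change of each tested member moved up as well, such as Ext1 from 0.02 to 0.17 and Hs2st1 from 0.26 to 0.41. The value of 0.13 is therefore not comparable with the 0.16 of the members.

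**Figure D2:**
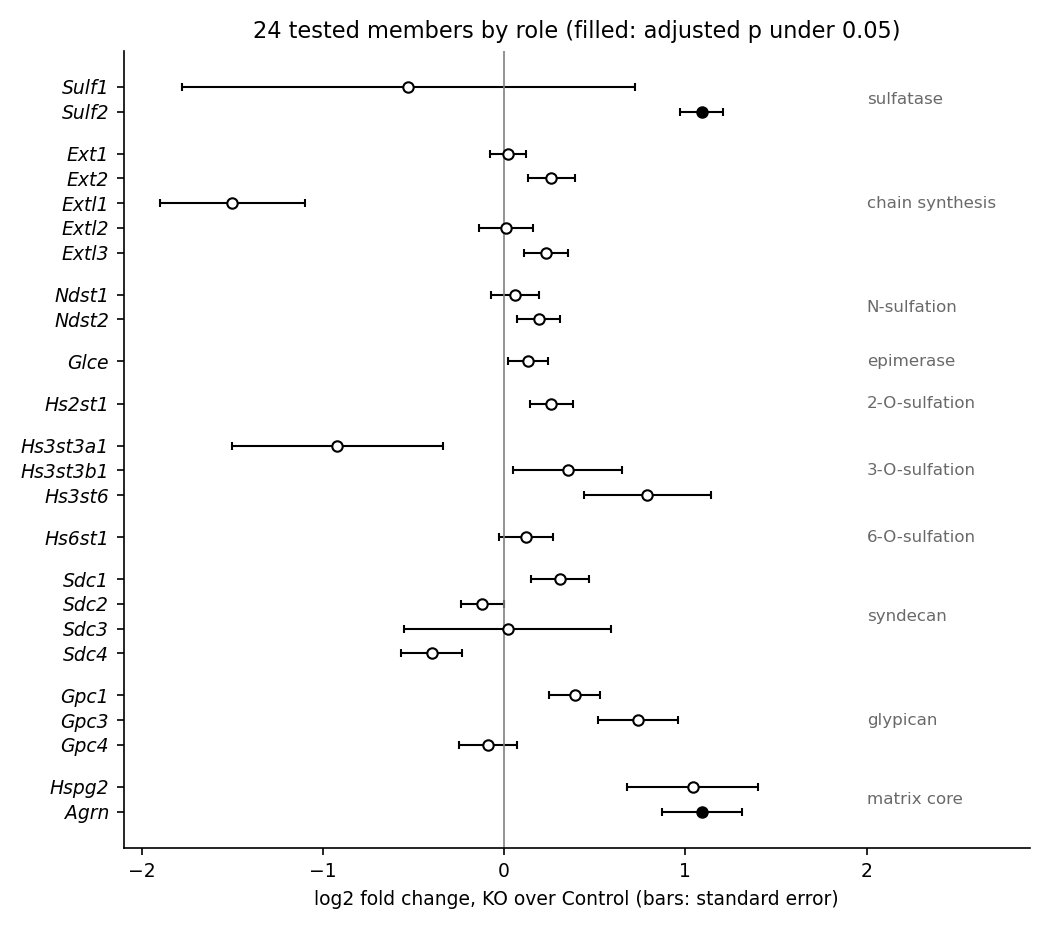
Log2 fold change, KO over Control, of the 24 tested members by role, with bars for the standard error and filled points for an adjusted p under 0.05. Sulf2 and Agrn, each at 1.09, are filled, while Ext1, Ext2, Extl2, Extl3, Ndst1, Ndst2, Glce, Hs2st1 and Hs6st1 lie between 0.01 and 0.26.

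The extracellular sulfatase Sulf2 showed the firmest difference among the members. Sulf2 (ENSMUSG00000006800, chromosome 2, 166073089 to 166155663, minus strand, GRCm38) measured 184, 213, 192 and 242 CPM in KO replicates 1 to 4 and 97.6, 103, 100.3 and 88.4 CPM in Control replicates 1 to 4. All 4 KO libraries lay above all 4 Control libraries. The level was 2.13-fold higher in KO, a log2 fold change of 1.09 ± 0.12 (SE, n = 4 per group, edgeR adjusted p = 0.00437), and Sulf2 ranked 13 of 14268 genes by p. The call held under all 18 other settings, with log2 fold changes from 1.01 to 1.24 and adjusted p-values from 5.19e-14 to 0.0386. Within the 2 libraries whose file names carry an index sequence the log2 ratio was 0.84, and within the 6 without one it was 1.17. The titles also carry numbers, which were grouped here into 3 series by all digits but the last. The labels do not name these series. The log2 ratio was 0.92 in the first series (KO replicate 1 and Control replicate 1) and 1.08 in the second (KO replicates 2 to 4, Control replicates 2 and 3). Control replicate 4 had no KO library in its series.

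The 3′ end of Sulf2 shares 154 exonic bases with Ncoa3, a nuclear receptor coactivator on the opposite strand, and the strand setting of the counting is not given in the sources used here. Ncoa3 held 32.4% as many counts as Sulf2, and its level was 48.5 to 58.2 CPM in KO and 30.1 to 53.7 CPM in Control. Its log2 fold change was 0.19 ± 0.17 (SE, edgeR adjusted p = 0.635).

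Sulf1, the other sulfatase, was barely present. It had 44 counts over the 4 KO libraries and 56 over the 4 Control libraries, with 0 counts in KO replicates 1 and 4 and in Control replicate 1. Its log2 fold change of -0.53 ± 1.25 (SE) is too imprecise to place. Per kilobase, Sulf2 made up 99.9% of the sulfatase level in KO and 99.7% in Control.

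Agrn, which encodes agrin, a large heparan sulfate proteoglycan of basement membranes, was the other gene that rose. Agrn (ENSMUSG00000041936, chromosome 4, 156165290 to 156197488, minus strand, GRCm38) measured 172, 134, 125 and 239 CPM in KO replicates 1 to 4 and 57.5, 85.7, 79.9 and 92.2 CPM in Control replicates 1 to 4. The groups did not overlap, and the KO libraries were spread more widely than the Control libraries. The level was 2.13-fold higher in KO (log2 1.09 ± 0.22 SE, n = 4 per group, edgeR adjusted p = 0.0409). This call was less secure than that of Sulf2. It held under 7 of 18 other settings and, of the fits that left out 1 library, only without KO replicate 3. In the other 7 such fits the adjusted p lay between 0.0731 and 0.109, with log2 fold changes from 0.87 to 1.18. The log2 ratio within the libraries with and without an index sequence in the file name was 1.01 and 1.12, and 1.58 in the first number series and 1.0 in the second. With a block for the number series the log2 fold change was 1.17 (adjusted p = 0.126).

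Hspg2, which encodes perlecan, a second basement membrane proteoglycan, had a fold change of similar size with a larger error. It measured 104, 45.3, 42.3 and 111 CPM in KO replicates 1 to 4 and 26.4, 29.9, 33.3 and 57.1 CPM in Control replicates 1 to 4. KO replicates 1 and 4 were far above the rest, and KO replicates 2 and 3 lay below Control replicate 4. The log2 fold change was 1.04 ± 0.36 (SE, edgeR adjusted p = 0.223), and it passed under 0 of 18 other settings. Its log2 ratio was 1.8 with and 0.76 without an index in the file name, and 1.98 and 1.06 in the number series. Col18a1, whose collagen XVIII also carries heparan sulfate in basement membranes and which is not one of the 35 members, was highest in KO replicate 4, and KO replicate 3 lay below Control replicate 4. It stood at 319, 318, 205 and 507 CPM in KO and at 148, 179, 186 and 261 CPM in Control (log2 0.80 ± 0.27 SE, adjusted p = 0.2). The ratio of Agrn to Hspg2 per kilobase was 3.75 ± 0.992 in KO and 3.49 ± 0.801 in Control (SD, n = 4 each), and the groups overlapped.

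**Figure D3:**
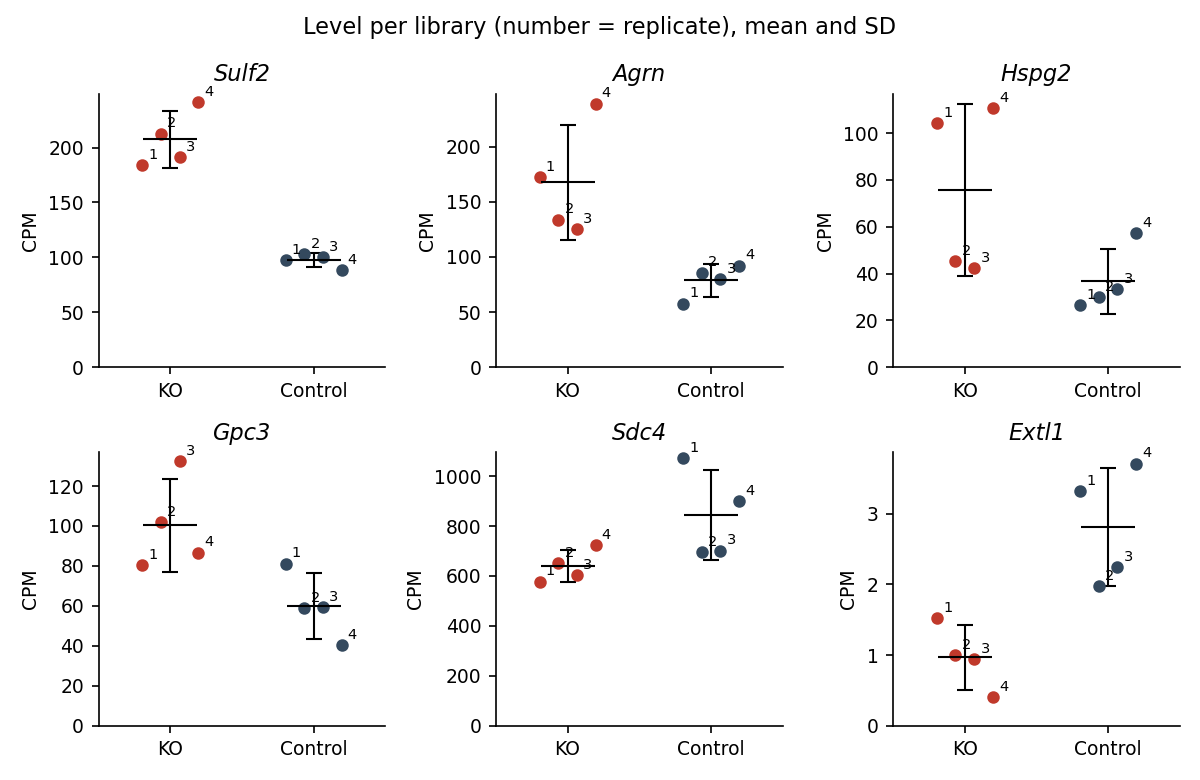
CPM of 6 members in each KO (red, left) and Control (dark blue, right) library, numbered by replicate, with the mean and SD per group. Sulf2 and Agrn are higher and Extl1 is lower in every KO library than in any Control library, while Hspg2, Gpc3 and Sdc4 overlap.

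Podocytes and endothelial cells also make agrin and perlecan, so their markers were set beside these values. The 6 podocyte markers summed to 2.21 to 86.5 CPM in KO and 6.10 to 133 CPM in Control, and 0 of 6 passed the test. The podocyte sums were 29.0, 21.3, 86.5 and 2.21 CPM in KO replicates 1 to 4, with Nphs1 at 0 CPM in KO replicate 4 and in Control replicate 1. The 7 endothelial markers summed to 6.57 to 47.5 CPM in KO and 17.9 to 36.8 CPM in Control, with the lowest sum again in KO replicate 4. The 7 fibroblast and pericyte markers summed to 1.15 to 7.28 CPM in KO and 4.05 to 12.0 CPM in Control, with Lum at 0 in all libraries. Other markers did differ between the groups. All 6 genes of dividing cells rose in KO, with sums of 25.9 to 89.1 CPM in KO and 8.44 to 10.9 CPM in Control. KO replicate 4 had the highest of these sums. The 6 macrophage markers summed to 76.5, 24.4, 19.5 and 47.9 CPM in KO replicates 1 to 4. Their sums in Control were 9.36 to 12.7 CPM, and 0 of the 4 tested passed. Csf1r alone held 72.2, 12.4, 13.3 and 32.8 CPM of the KO sums. Csf1r and Cd68 were higher in every KO library than in any Control library, whereas Ptprc and Lyz2 overlapped. Log2 fold changes were 2.21 ± 0.52 for Csf1r, 1.96 ± 0.54 for Cd68, 1.56 ± 0.49 for Ptprc and -0.22 ± 0.74 for Lyz2 (SE). Ptprc stood at 2.51 to 10.9 CPM in KO and 1.02 to 3.11 CPM in Control (edgeR adjusted p = 0.172). Adgre1 and C1qa were too low to test. Of the thick ascending limb markers 1 of 6 fell (Umod), with sums of 2739 to 5475 CPM in KO and 7466 to 12224 CPM in Control. Umod held most of these sums, and the other markers of the list overlapped between the groups. Of the distal convoluted tubule markers 5 of 10 fell (Pvalb, Trpm6, Calb1, Klhl3 and Kl) and 1 rose (Tfap2b). Slc12a3, Wnk1, Emx1 and Sall3 did not pass. Of these, Wnk1 was lower in every KO library than in any Control library (log2 -0.56 ± 0.15 SE, edgeR adjusted p = 0.107). Log2 fold changes in this list ran from -8.06 for Pvalb to 0.63 for Tfap2b, with -0.41 for Slc12a3. The sums were 7921 to 11731 CPM in KO and 14250 to 20852 CPM in Control. The part of these cell populations in the Sulf2, Agrn and Hspg2 results was not tested. In bulk fragments, fewer cells of a type and less RNA per cell cannot be told apart. For 3 other lists 0 genes passed. The 7 proximal tubule markers summed to 971 to 2146 CPM in KO and 878 to 3474 CPM in Control. The 6 intercalated cell markers summed to 304 to 651 CPM in KO and 373 to 513 CPM in Control. The 7 connecting tubule and principal cell markers summed to 157 to 375 CPM in KO and 353 to 606 CPM in Control. Each of these 7 was lower in KO at an unadjusted edgeR p under 0.05, against 6.15% of all genes. Their log2 fold changes ran from -1.61 for Fxyd4 to -0.56 for Scnn1b. The groups did not overlap for Avpr2 and overlapped for the others.

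The promoters of the 2 genes that rose are printed because these are the members that passed the test. Each run is the 250 bases before the outermost RefSeq start on GRCm38.p6, read 5′ to 3′ on the gene's own minus strand, at chr2:166155684-166155933 for Sulf2 and chr4:156197489-156197738 for Agrn. Capitals mark the letters GGAAA, the core of sites for the calcineurin-dependent NFAT factors, and GGGCGG, the GC box bound by Sp1, searched on both strands as GGAAA or TTTCC and GGGCGG or CCGCCC.
Sulf2: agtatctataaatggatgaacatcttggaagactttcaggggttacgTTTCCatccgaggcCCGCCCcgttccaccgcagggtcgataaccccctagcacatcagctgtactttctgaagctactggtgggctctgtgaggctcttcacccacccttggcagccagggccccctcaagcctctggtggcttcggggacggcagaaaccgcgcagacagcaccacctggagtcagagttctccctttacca
Agrn: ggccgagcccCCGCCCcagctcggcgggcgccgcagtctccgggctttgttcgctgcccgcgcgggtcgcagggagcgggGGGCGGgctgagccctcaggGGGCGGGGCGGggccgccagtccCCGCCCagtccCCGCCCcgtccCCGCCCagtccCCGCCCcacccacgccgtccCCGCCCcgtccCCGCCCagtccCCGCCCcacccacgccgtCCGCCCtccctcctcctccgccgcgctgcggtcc
The Sulf2 window held 1 NFAT core and 1 GC box, and 57.2% of its bases were G or C. The Agrn window held 0 NFAT cores and 12 GC boxes, and 83.6% of its bases were G or C. Over 32851 RefSeq start windows of the same length, 55.6% held an NFAT core and 32.7% a GC box, 0.015% held at least 12 GC boxes, and the median GC content was 52.4%. No base was shared between an NFAT core and a GC box. A match of letters describes the window and shows no binding.

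Among the glypicans, which hang on the cell surface by a lipid anchor, Gpc3 and Gpc4 held most of the level and Gpc1 the rest. Gpc3, a growth regulator that binds Wnt and Hedgehog proteins, stood at 80.2, 102, 132 and 86.7 CPM in KO and at 81.1, 58.9, 59.4 and 40.2 CPM in Control. Control replicate 1 lay just above KO replicate 1, and the other 3 Control libraries lay below all KO libraries. The log2 fold change was 0.74 ± 0.22 (SE, edgeR adjusted p = 0.149), and it passed by DESeq2 (0.0395), by limma-voom (0.0322) and with library totals as the scaling (0.0455). The log2 ratio was 0.44 with and 0.83 without an index in the file name, and -0.02 in the first number series and 0.86 in the second. Gpc4, the neighbour of Gpc3 on the X chromosome, stood at 83.2, 84.2, 109 and 81.9 CPM in KO and at 76.8, 119, 95.7 and 90.1 CPM in Control (log2 -0.09 ± 0.16 SE, adjusted p = 0.806), with a positive sign with library totals. Gpc3 took 46.2% ± 3.87 of the summed glypican level per kilobase in KO and 34.0% ± 8.35 in Control (SD, n = 4 each), a description without a test. Gpc1 stood at 47.2, 42.3, 37.8 and 56.8 CPM in KO and at 36.5, 34.6, 31.0 and 38.5 CPM in Control, with KO replicate 3 below Control replicate 4 (log2 0.39 ± 0.14 SE, adjusted p = 0.247). Gpc2, Gpc5 and Gpc6 had 16, 9 and 12 counts over the KO libraries and 16, 33 and 7 over the Control libraries. Gpc2 and Gpc5 share exonic bases with the predicted genes Gm43720 and Gm20713, so these low counts are uncertain.

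The syndecans are transmembrane core proteins, and Sdc4, which sits at focal adhesions and acts as a coreceptor for fibronectin and growth factors, supplied 90.8% ± 1.40 of their summed level per kilobase in KO and 92.3% ± 1.56 in Control (SD, n = 4 each). Sdc4 stood at 577, 650, 602 and 723 CPM in KO and at 1072, 696, 702 and 901 CPM in Control. KO replicates 1 to 3 lay below every Control library, and KO replicate 4 lay above Control replicates 2 and 3. The log2 fold change was -0.40 ± 0.17 (SE, edgeR adjusted p = 0.318), and it was -0.24 with library totals. The log2 ratio was -0.89 in the first number series and -0.09 in the second, and -0.27 with and -0.44 without an index in the file name. Sdc1, the main syndecan of many epithelia, was low at 9.19, 9.06, 8.66 and 12.4 CPM in KO and 8.14, 7.27, 8.0 and 8.32 CPM in Control. Its groups did not overlap, but the shift was small (log2 0.31 ± 0.16 SE, adjusted p = 0.420). Sdc2 was at 67.0 to 91.9 CPM in KO and 80.9 to 91.4 CPM in Control, with a log2 fold change of -0.12 ± 0.12 (SE) that turned to 0.02 with library totals. Sdc3, a largely neural syndecan, was at most 1.22 CPM in KO and 1.25 CPM in Control.

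Of the 7 sulfotransferases tested, which set the pattern that Sulf2 edits, 0 passed. Hs6st1, which adds the 6-O-sulfate that the sulfatases remove, made up 99.8% of the 6-O-sulfotransferase level per kilobase in both groups and stood at 161, 114, 122 and 121 CPM in KO and 106, 126, 104 and 141 CPM in Control (log2 0.12 ± 0.15 SE, edgeR adjusted p = 0.737). The ratio of Sulf2 to Hs6st1 per kilobase was 1.08, 1.76, 1.48 and 1.89 in KO replicates 1 to 4 and 0.873, 0.771, 0.911 and 0.590 in Control replicates 1 to 4. It lay above 1 in every KO library and below 1 in every Control library, with a mean of 1.55 ± 0.359 in KO and 0.786 ± 0.143 in Control (SD, n = 4 each). This ratio is of RNA levels and was not tested on its own. Since Hs6st1 did not pass, the separation mainly restates that of Sulf2. Where the ratio equals 1 depends on the exon lengths used, so 1 marks no balance point.

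**Figure D4:**
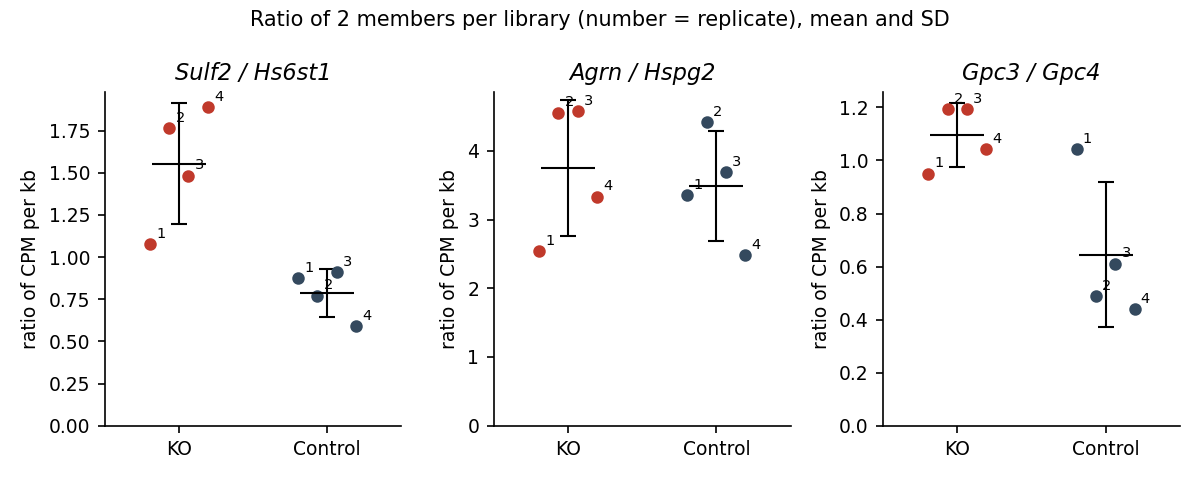
Ratio of CPM per kb for 3 pairs of members in each KO (red, left) and Control (dark blue, right) library, numbered by replicate, with mean and SD. The Sulf2 to Hs6st1 ratio does not overlap between the groups, whereas Agrn to Hspg2 and Gpc3 to Gpc4 overlap, the last through Control replicate 1 at 1.04.

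Hs2st1, the 2-O-sulfotransferase, stood at 28.7, 28.8, 35.1 and 35.8 CPM in KO and at 25.2, 28.3, 27.4 and 26.1 CPM in Control. The groups were apart only narrowly (log2 0.26 ± 0.12 SE, edgeR adjusted p = 0.350). Ndst1, which starts sulfation by N-deacetylation and N-sulfation of glucosamine, was at 142, 126, 123 and 131 CPM in KO and 111, 113, 122 and 154 CPM in Control, and Ndst2 at 19.9 to 23.0 CPM in KO and 16.4 to 21.5 CPM in Control, with log2 fold changes of 0.06 ± 0.13 and 0.19 ± 0.12 (SE). Glce, the epimerase that makes iduronic acid, was at 18.3, 17.6, 19.6 and 18.3 CPM in KO and 18.3, 16.1, 15.4 and 17.5 CPM in Control (log2 0.13 ± 0.11 SE). Ndst3, Ndst4, Hs6st2 and Hs6st3 had 8, 7, 8 and 14 counts over the KO libraries and 9, 44, 17 and 3 over the Control libraries.

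Among the 3-O-sulfotransferases, which add the rarest sulfate, Hs3st3b1 carried 65.2% ± 11.6 of the level per kilobase in KO and 67.2% ± 11.7 in Control (SD, n = 4 each). It stood at 29.6, 20.3, 27.7 and 27.0 CPM in KO and at 16.1, 37.2, 15.1 and 13.3 CPM in Control, with Control replicate 2 above every KO library (log2 0.35 ± 0.30 SE, edgeR adjusted p = 0.621). Without Control replicate 2 the log2 fold change was 0.82 (adjusted p = 0.0521). Hs3st6 was low, at 1.97, 4.63, 2.68 and 5.51 CPM in KO and 2.49, 1.64, 2.04 and 2.36 CPM in Control, with KO replicate 1 inside the Control range (log2 0.79 ± 0.35 SE, adjusted p = 0.347). Its log2 ratio was -0.33 in the first number series and 1.22 in the second, and 0.27 with and 0.9 without an index in the file name. Hs3st3a1 had 42 counts in KO and 66 in Control (log2 -0.92 ± 0.58 SE). Hs3st1 had 29 counts in KO and 8 in Control, and Hs3st2 had 0 counts in all 8 libraries, which allows a level of up to 0.0137 CPM over the series, counting error only.

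Of the 5 enzymes that extend the chain, 0 passed. Ext1 and Ext2, the subunits of the copolymerase, were at 81.9, 73.8, 83.5 and 79.9 CPM in KO and 83.2, 72.8, 81.5 and 78.2 CPM in Control for Ext1, and at 46.5 to 65.2 CPM in KO and 42.5 to 50.2 CPM in Control for Ext2. Their log2 fold changes were 0.02 ± 0.10 and 0.26 ± 0.13 (SE). Extl3, which adds the first glucosamine and so commits the chain to heparan sulfate, was at 52.5 to 55.9 CPM in KO and 37.5 to 54.0 CPM in Control (log2 0.23 ± 0.12 SE). Extl2, which can add a single residue that ends the chain, was at 19.5 to 29.0 CPM in KO and 21.8 to 28.3 CPM in Control (log2 0.01 ± 0.15 SE). Extl1, a related glucosamine transferase, was low. It stood at 1.52, 1.00, 0.944 and 0.401 CPM in KO and at 3.32, 1.97, 2.25 and 3.71 CPM in Control, from 132 counts in KO and 267 in Control. All KO libraries lay below all Control libraries, with a log2 fold change of -1.5 ± 0.40 (SE) that missed the threshold by edgeR (adjusted p = 0.104) and passed by DESeq2 (adjusted p = 0.0081). The log2 ratio was -0.37 with and -1.98 without an index in the file name, and -1.12 in the first number series and -1.43 in the second. Heparanase, the enzyme that cuts the chain, was nearly absent. Hpse had 9 counts in KO and 3 in Control, and Hpse2, its inactive relative, had 0 counts in KO and 2 in Control.

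Genes that start, feed, break down or otherwise carry the chain gave 1 call. Of 30 tested genes in these 4 groups, 0 rose and 1 fell (Papss1), with 2 higher and 3 lower at an unadjusted p under 0.05. Of 15 tested genes of chondroitin and dermatan sulfate synthesis, 0 rose and 0 fell at the adjusted threshold, with 0 of 15 at an unadjusted p under 0.05. Over all genes tested, 2.21% passed in either direction and 13.9% had an unadjusted p under 0.05 by edgeR, so these counts are not set apart from the background. Papss1, which makes the sulfate donor PAPS for all sulfotransferases, stood at 246, 267, 253 and 304 CPM in KO and at 473, 340.1, 399 and 421 CPM in Control. The groups did not overlap (log2 -0.61 ± 0.13 SE, edgeR adjusted p = 0.0499), but the value lay at the threshold and passed under 3 of 18 other settings. It missed in all 8 fits that left out 1 library, with log2 fold changes from -0.69 to -0.54, and with the block for the number series (log2 -0.58, adjusted p = 0.2). Its log2 ratio was -0.47 with and -0.65 without an index in the file name, and -0.94 and -0.43 in the number series. Its relative Papss2 overlapped, at 25.4 to 93.7 CPM in KO and 32.6 to 150 CPM in Control. In the linker group, 0 of 7 passed, and the smallest p-values belonged to the xylose kinase Fam20b (log2 0.17 ± 0.11 SE) and the xylosyltransferase Xylt2 (0.16 ± 0.14 SE). Among the lysosomal and sulfatase-activating genes, 0 of 9 passed. Sumf1, which activates sulfatases including Sulf2, was at 54.1 to 63.1 CPM in KO and 65.5 to 70.5 CPM in Control without overlap (log2 -0.22 ± 0.09 SE, adjusted p = 0.334), and Sgsh had a log2 fold change of 0.30 ± 0.16 (SE). Among other carriers of heparan sulfate, 0 of 5 passed. Besides Col18a1, the smallest p belonged to Cd44, which was low at 1.13, 1.16, 0.551 and 4.01 CPM in KO and 0.341, 0.409, 0.470 and 0.902 CPM in Control (log2 1.68 ± 0.62 SE, adjusted p = 0.259). Without KO replicate 4 its log2 fold change was 0.85. In the chondroitin group the smallest belonged to Chst13 (-0.60 ± 0.31 SE) and Csgalnact1 (-0.72 ± 0.38 SE).

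**Figure D5:**
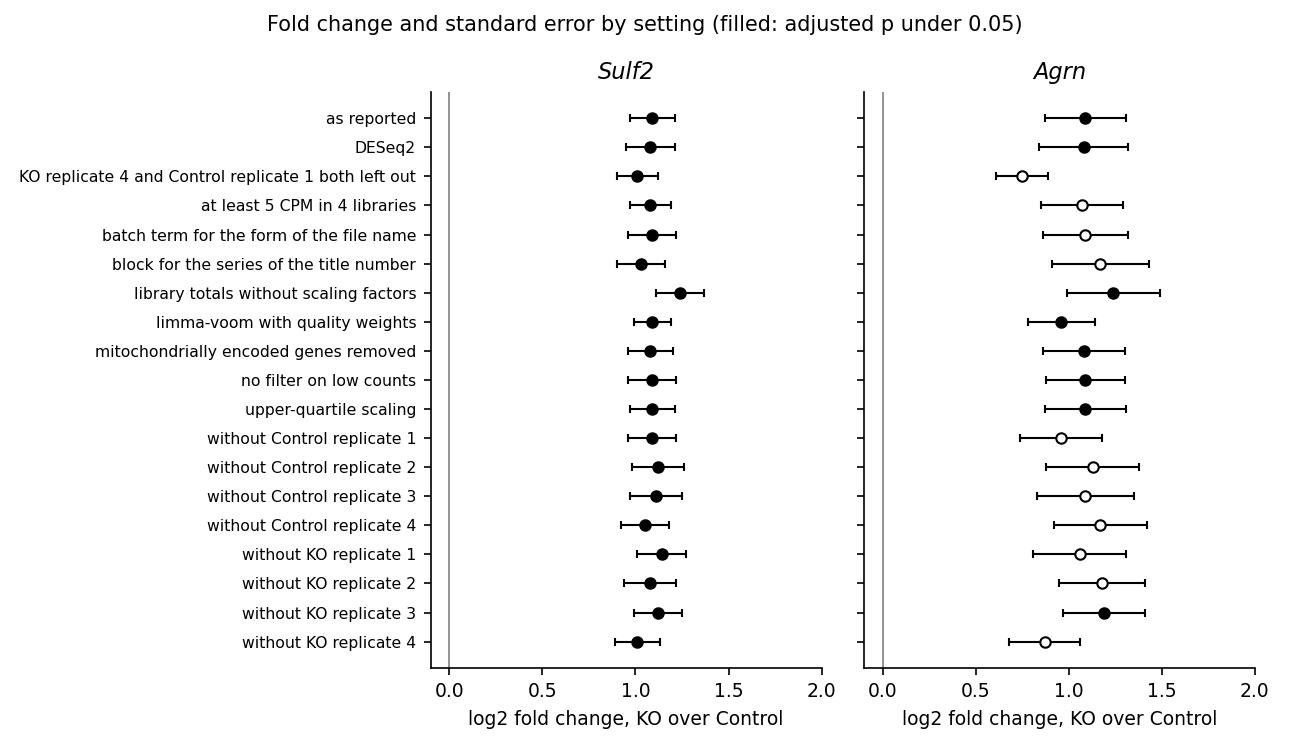
Log2 fold change, KO over Control, of Sulf2 and Agrn as reported and under 18 other settings, with bars for the standard error and filled points for an adjusted p under 0.05. Sulf2 stays between 1.01 and 1.24 with all points filled, and Agrn lies between 0.75 and 1.24 with 7 of the 18 other points filled.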

How the data were processed

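For each of the 8 libraries the authors deposited raw counts by Ensembl gene, not normalized. The submitters' processing notes name bcl2fastq 2.20, fastp 0.20.0, STAR 2.7.4a and the build GRCm38.p6. The counter, its strand setting and its treatment of multi-mapped reads were not found in the sources used here. GENCODE M21 (GRCm38) named 42347 of 42416 identifiers, and the others held 0.0199% of counts. RefSeq promoter windows were listed for 26 of the 35 members.

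Genes were kept by filterByExpr, scaled by TMM and tested with edgeR 4.0.16 (two-sided quasi-likelihood F test, R 4.3.3, genotype as the single factor, 8 libraries), with Benjamini-Hochberg adjustment over 14268 genes and a threshold of 0.05. Standard errors are the fold change over the square root of F. DESeq2 1.42.0 and limma 3.58.1 (voom with quality weights) were alternatives, with 2 other scalings, 2 other filters, a batch term, a block, mitochondrial genes dropped and each library left out. The fit was tested on simulated data. The labels do not state that libraries came from separate animals, so p-values measure the spread between these libraries.

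All 35 members are accounted for, with per-library values for members past the threshold, under an unadjusted p of 0.05 or with groups that did not overlap, and for the highest tested member of a role, ranges for the rest, and, of each further list, members past the threshold or else the 2 with the smallest p. Members and lists were chosen with earlier results of these data known. Per-library values of Gpc4 and the values of Papss2 and Ncoa3 were chosen after they were seen.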

Additional observations from a re-analysis of the deposited data

Results flagged for a closer look

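In 5 of the 66 groups of 4 libraries checked (KO and Control for the 24 tested members and 9 genes of the further lists), the highest library lay farther from the others than Dixon's 95% limit allows, where chance flags about 1 in 20 groups. In KO, Sdc1 reached 12.4 CPM in replicate 4, Hs6st1 161 CPM in replicate 1 and Gpc4 109 CPM in replicate 3. In Control, Ext2 reached 50.2 CPM in replicate 1 and Hs3st3b1 37.2 CPM in replicate 2.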

How the results depend on the processing

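Depth limits the members under 1 CPM. The 2 higher members became 1 (Sulf2) with only genes kept that reach 5 CPM in 4 libraries, with file-name form as a batch term, with the title-number series as a block, and with KO replicate 4 and Control replicate 1 both left out, the last chosen after seeing the data. Leaving out 1 library gave 1 to 2 higher members, 2 only without KO replicate 3, and 0 lower. DESeq2 gave 1 lower member (Extl1). The 316 calls over all genes became 749 by DESeq2, 519 by limma-voom, 140 with the 5 CPM filter, 199 with the batch term, 29 with the block, 109 without both libraries and 36 to 388 without 1 library, within 1.5 times of 316 only without KO replicate 3. The 1 other pathway call (Papss1) became 0 with upper-quartile scaling, library totals, no filter on low counts, the 5 CPM filter, the batch term, the block, both libraries left out or any 1 library left out. Some members that did not pass changed sign: Sulf1 to 0.44 with the block (-1.84 to 0.51 without 1 library), Sdc2 to 0.02 and Gpc4 to 0.05 with library totals, Sdc3 to -0.24 by limma-voom. Without 1 library, log2 fold changes ran from -0.02 to 0.05 for Ext1, -0.07 to 0.11 for Extl2, -0.01 to 0.21 for Hs6st1, -0.34 to 0.42 for Sdc3 and -0.21 to 0.03 for Gpc4. The cause of these changes was not tested. No paired analysis was possible because the replicate numbers were given in order of deposit and pair no samples, and the block by title-number series groups libraries without pairing them.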
